A study of Mus musculus with 23 samples.

Results

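Antigen-specific CD8 T cells from mice given A8B1-OVA were set against the same cells from mice given free OVA at the molar-equivalent amount. This comparison used 6 of the 23 libraries of the series, 3 for each treatment, and libraries were assigned to the groups by their labels. The cells were OT-I cells, CD8 T cells of mouse origin whose single transgenic receptor sees an ovalbumin (OVA) peptide on MHC class I. They had been transferred into C57BL/6 mice, which were treated 1 day later. In the A8B1-OVA group the dose was 1 ug, and in the other group it was free OVA at the molar equivalent, a group whose titles carry the number 0.5 with no unit. Sorting took place on day 5 after transfer from pooled spleen and lymph nodes, so the libraries mix both organs. RNA of 3 mice was pooled into each library, and host T cells with other receptors were present in every animal. By its title the series concerns T cell anergy and antigen directed to red blood cells, while the labels name A8B1 without saying what it is. The OT-I saline and higher-dose OVA libraries were not part of the contrast, but entered the estimate of the spread, the filter on low counts and the scaling. They also entered the principal components and the ranking of markers over the OT-I libraries. OT-II libraries (CD4 T cells with a receptor for another OVA peptide) entered only the last comparison.

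A CD8 T cell that meets its antigen first divides and then takes one of several courses. With costimulation it becomes an effector cell that makes granzymes and cytokines, and without it or under lasting antigen it may become anergic or exhausted. Anergic T cells, described mostly in CD4 cells, carry products of NFAT and Egr factors and inhibitory surface receptors, and they respond poorly when antigen returns.

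The libraries held between 53 M and 73.5 M counts with A8B1-OVA, and 56 M, 26.6 M and 35.6 M in molar-equivalent OVA replicates 1, 2 and 3. Cd8a, the CD8 alpha chain, had 1330, 1170 and 1170 CPM (counts scaled to a common library size with TMM) with A8B1-OVA and 1160, 916 and 1200 CPM with molar-equivalent OVA, so both groups carried the marker of the sorted cell. Along the leading principal component over the 12 OT-I libraries, which took 28.1% of the variance, the A8B1-OVA libraries lay at -61, -68.1 and -35.6 and the molar-equivalent OVA libraries at 25.4, 51.3 and 19.3. A8B1-OVA replicate 3 thus lay nearest to the other group. Beyond the 3 mice behind each pool the labels do not say how replicates were separated, so p-values measure only the spread between these pools, which may be technical. Molar-equivalent OVA replicate 2, the shallowest library, stood apart by RNA of other cells. The 107 deposited markers of other cell types, MHC class II genes included, summed to 924, 923 and 599 CPM with A8B1-OVA, and to 518, 5380 and 1390 CPM with molar-equivalent OVA (difference of means -1620 CPM, exact two-sided permutation p = 0.4, where 0.1 is the smallest p that 3 against 3 allows). That library had the highest level of the 12 OT-I libraries for 84 of the 107 markers. Its B cell markers summed to 657 CPM against 60.1 to 174 in the other 5 libraries, and its macrophage and monocyte markers to 955 CPM against 55.4 to 191. Cd79a, a signalling chain of the B cell receptor, was at 141 CPM there and at 5.34 to 35.3 CPM in the other 5 libraries. Only Col3a1 and Pdpn, both stromal, were at 0 in all 6 libraries. For several genes and gene lists, results are also given without molar-equivalent OVA replicate 2.

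**Figure D1:**
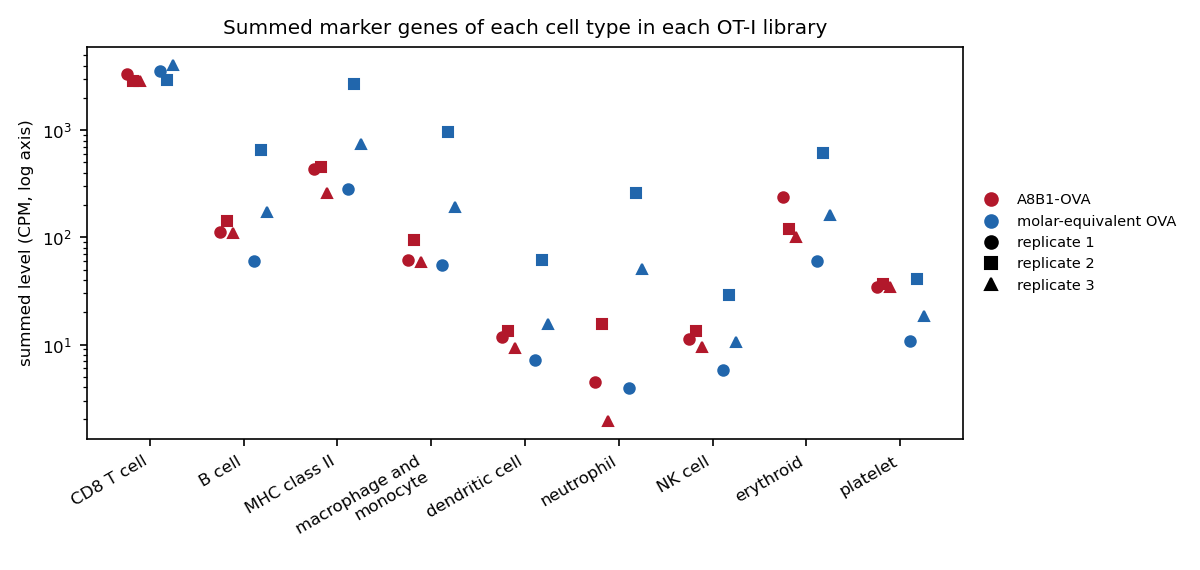
Summed levels (CPM, log axis) of 9 marker lists in each OT-I library, A8B1-OVA left and molar-equivalent OVA right of each label, with 1 symbol per replicate. CD8 T cell markers lay between 2850 and 4070 CPM in all 6 libraries, while molar-equivalent OVA replicate 2 had the highest sum for the 8 other lists.

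In all, 1496 of 14080 tested genes (10.6%) passed at an adjusted p under 0.05 (edgeR quasi-likelihood test, Benjamini-Hochberg). Among them 924 genes were higher with A8B1-OVA (6.56%), 516 of which exceeded 2-fold (3.66%). Another 572 were lower (4.06%), and 194 of these exceeded 2-fold (1.38%). The median log2 fold change over all tested genes was -0.02. Counts of calls in the gene lists below are to be read beside these shares, 6.56% higher and 4.06% lower. The libraries of the groups did not overlap for 902 of the genes called higher and 556 of those called lower, beside 1822 (12.9%) and 1716 (12.2%) of all tested genes without overlap in those directions. Lack of overlap thus went with nearly every call, and where it is given below for a called gene it is not separate support. A8B1-OVA replicate 3 was the lowest of its group for 646 of the 924 higher genes and the highest of its group for 311 of the 572 lower ones. Without A8B1-OVA replicate 3 the count was 2181 genes, without replicate 1 it was 997, without replicate 2 575, and without molar-equivalent OVA replicate 1 it was 973. Without molar-equivalent OVA replicate 2 it was 1654, and without replicate 3 of that group 1170. A fit of only these 6 libraries called 575 genes, and DESeq2 called 2473.

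The list of surface markers of anergic T cells had the highest median fold change of the 25 gene lists, and it shares Lag3 and Pdcd1 with the list of inhibitory receptors. The lists were chosen with earlier results of these data known, so this rank is a description and not a test. Of 18 tested inhibitory receptor and ligand genes 6 were higher and 2 lower, with a median log2 fold change of 0.15. Lag3, a receptor for MHC class II that damps receptor signals, was at 31.2, 24.4 and 14.7 CPM with A8B1-OVA, against 0.266, 0.715 and 1.73 CPM with molar-equivalent OVA. Replicate 3 was the lowest A8B1-OVA library and the highest molar-equivalent OVA library, and the groups did not overlap (log2 fold change 4.72 ± 0.55 SE, adjusted p = 0.00026). Pdcd1, the gene of PD-1, had 89.9, 89.6 and 54.4 CPM with A8B1-OVA and 2.13, 3.68 and 7.14 CPM with molar-equivalent OVA, in the same order of libraries. Cd160, a receptor of the herpesvirus entry mediator, lay at 176, 163 and 146 CPM with A8B1-OVA and 62.1, 57.8 and 95 CPM with molar-equivalent OVA (1.17 ± 0.22, adjusted p = 0.0049). Ctla4, the inhibitory counterpart of Cd28, had 73.5, 59.8 and 58.6 CPM with A8B1-OVA and 7.73, 7.54 and 18.1 CPM with molar-equivalent OVA. Replicate 3 was again the library of molar-equivalent OVA nearest to the other group. Lair1, a collagen receptor with inhibitory motifs, went the other way, at 8.53, 10.6 and 12.9 CPM with A8B1-OVA and 22.3, 21.7 and 25.1 CPM with molar-equivalent OVA (-1.10 ± 0.21, adjusted p = 0.0062). The list had other called members whose calls were not made in every fit. Pdcd1lg2, the PD-L2 gene (1.61, adjusted p = 0.016), lost its call without A8B1-OVA replicate 1 or 2 or molar-equivalent OVA replicate 1 (1.43 to 1.49, adjusted p = 0.052 to 0.075). Klrg1, a receptor of late effector cells (-1.80, adjusted p = 0.04), lost its own without A8B1-OVA replicate 1, 2 or 3 or molar-equivalent OVA replicate 2 or 3 (-1.43 to -1.85, adjusted p up to 0.13). Tigit, at 6.05, 7 and 3.39 CPM with A8B1-OVA and 4.1, 2.18 and 2.93 CPM with molar-equivalent OVA, did not pass (0.83, adjusted p = 0.2). Havcr2, the gene of TIM-3, stayed under 4 CPM in all 6 libraries (-2.37, adjusted p = 0.12).

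Of the 9 tested surface markers of anergic T cells 7 were higher and 1 was lower, with a median of 3.61. Nrp1, a semaphorin co-receptor, had 48.3, 47.7 and 47.1 CPM with A8B1-OVA and 2.54, 6.4 and 2.96 CPM with molar-equivalent OVA. The A8B1-OVA libraries were nearly level and the other group was highest in replicate 2 (3.61 ± 0.41, adjusted p = 0.00022), without which the fold change was 4.12. Cd200, whose product engages an inhibitory receptor on myeloid cells, had 117, 109 and 61.3 CPM with A8B1-OVA and 4.38, 8.5 and 8.11 CPM with molar-equivalent OVA. Cd44, an adhesion receptor of antigen-experienced T cells, had 99.4, 120 and 95.5 CPM with A8B1-OVA and 30.1, 59 and 56.3 CPM with molar-equivalent OVA (1.12 ± 0.22, adjusted p = 0.0066). Il7r was the member that fell, at 125, 91.3 and 164 CPM with A8B1-OVA and 486, 418 and 359 CPM with molar-equivalent OVA. Izumo1r, the folate receptor FR4 that marks anergic CD4 cells, had 165, 137 and 90.7 CPM with A8B1-OVA and 4.63, 9.15 and 10.9 CPM with molar-equivalent OVA. In each of these genes the libraries of the groups did not overlap. Nt5e, which makes the ectoenzyme CD73 that marks anergic CD4 cells, was the member that did not pass, at 12.5, 8.44 and 16 CPM with A8B1-OVA and 16.3, 15 and 10 CPM with molar-equivalent OVA (-0.16, adjusted p = 0.76). Cd5 was the weakest of the 7 at 0.36 and lost its call without A8B1-OVA replicate 1 or 2 or molar-equivalent OVA replicate 1 or 2 (adjusted p up to 0.14). On GRCm38 Nrp1 lies on chromosome 8 from 128358604 to 128503363 on the plus strand, and Cd200 on chromosome 16 from 45382135 to 45409053 on the minus strand.

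**Figure D2:**
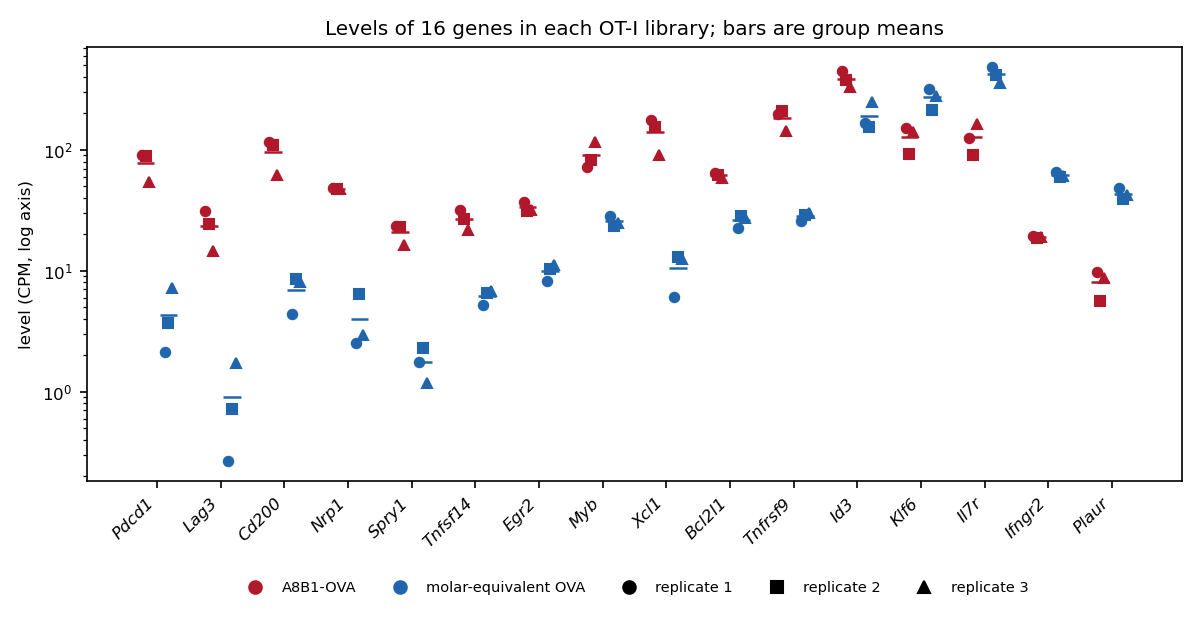
Levels of 16 genes (CPM, log axis) in each OT-I library, with A8B1-OVA left and molar-equivalent OVA right, 1 symbol per replicate and a bar at each group mean. The first 12 genes were higher with A8B1-OVA and the last 4 lower, and in none of them did the libraries of the groups overlap. All 16 were picked from called genes, nearly all of which lacked overlap (902 of 924 higher, 556 of 572 lower). Over all tested genes 12.9% and 12.2% lacked it in those directions.

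Of 26 tested transcription factors that the T cell receptor induces 8 were higher and 1 lower, 17 did not pass, and the median was 0.36. Egr2, a zinc finger factor, had 37.2, 31 and 32 CPM with A8B1-OVA and 8.16, 10.4 and 11.1 CPM with molar-equivalent OVA. The related Egr3 had 23.9, 23.4 and 14.8 CPM with A8B1-OVA and 4.88, 7.47 and 4.52 CPM with molar-equivalent OVA (1.88 ± 0.32, adjusted p = 0.0028). Irf4, which scales with the strength of receptor signals, had 40.1, 40.8 and 32.1 CPM with A8B1-OVA and 11.5, 12.1 and 12.1 CPM with molar-equivalent OVA. None of the 3 genes overlapped between the groups, and each call held without any 1 library. Nfatc1, the inducible NFAT factor, had 530, 546 and 536 CPM with A8B1-OVA and 291, 328 and 206 CPM with molar-equivalent OVA (0.97 ± 0.16, adjusted p = 0.0023). Rel, an NF-kB subunit, had 58.6, 73.3 and 76 CPM with A8B1-OVA and 33.8, 45.3 and 24.9 CPM with molar-equivalent OVA (1.00 ± 0.21, adjusted p = 0.0099). The nuclear receptors Nr4a1 (0.94, adjusted p = 0.018) and Nr4a3 (1.04, adjusted p = 0.024) were higher too, with calls that did not outlast every left-out library. With A8B1-OVA replicate 1 left out, Nr4a1 was at 0.79 (adjusted p = 0.062) and Nr4a3 at 0.96 (adjusted p = 0.069). Without molar-equivalent OVA replicate 3 they were at 0.85 (adjusted p = 0.054) and 1.07 (adjusted p = 0.051), and Nr4a3 also lost its call without A8B1-OVA replicate 2 or molar-equivalent OVA replicate 1 or 2 (0.96 to 1.10, adjusted p = 0.051 to 0.081).

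The called lower member was Junb, a subunit of AP-1, the partner of NFAT in a full T cell response. It had 743, 370 and 400 CPM with A8B1-OVA and 1310, 750 and 1170 CPM with molar-equivalent OVA (-1.10 ± 0.31, adjusted p = 0.041). A8B1-OVA replicate 1 nearly reached the lowest library of the other group, and the call was lost without A8B1-OVA replicate 2 or 3 or molar-equivalent OVA replicate 1 or 3 (-0.89 to -1.01, adjusted p = 0.09 to 0.18). Fos had 116, 42 and 51.3 CPM with A8B1-OVA and 145, 107 and 203 CPM with molar-equivalent OVA, and did not pass (-1.12, adjusted p = 0.13; -1.69 without A8B1-OVA replicate 1, with adjusted p = 0.043). Jun likewise did not pass (-0.99, adjusted p = 0.15). Batf, a partner of Jun proteins and Irf4, had 117, 99 and 89 CPM with A8B1-OVA and 73.7, 58.6 and 87.2 CPM with molar-equivalent OVA (0.47, adjusted p = 0.064), and it passed without A8B1-OVA replicate 3 (0.56, adjusted p = 0.034) or molar-equivalent OVA replicate 3 (0.64, adjusted p = 0.023). Myc, a driver of growth, had 279, 256 and 283 CPM with A8B1-OVA and 283, 240 and 258 CPM with molar-equivalent OVA (0.06, adjusted p = 0.77). Irf8 depended on the library with markers of other cells. It had 84.9, 97 and 62.8 CPM with A8B1-OVA and 19.1, 72.1 and 29.7 CPM with molar-equivalent OVA (1.02, adjusted p = 0.12), and passed at 1.74 (adjusted p = 0.005) without molar-equivalent OVA replicate 2.

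Genes that feed back on receptor signalling were called in both directions, 13 higher and 6 lower of 47, with a median of 0.07. Without molar-equivalent OVA replicate 2 the counts were 10 higher and 6 lower. Rgs16, a brake on G protein signals of chemokine receptors, had 24.8, 25.6 and 21.2 CPM with A8B1-OVA and 0.975, 1.18 and 1.54 CPM with molar-equivalent OVA (4.28 ± 0.44, adjusted p = 0.00015). Spry1, an inhibitor of the Ras to MAP kinase cascade, had 23.6, 22.9 and 16.3 CPM with A8B1-OVA and 1.76, 2.29 and 1.19 CPM with molar-equivalent OVA (3.59 ± 0.51, adjusted p = 0.00097). In both genes the lowest A8B1-OVA library was replicate 3, and it was still far above the other group. Ptpn7, a phosphatase of MAP kinases in blood cells, had 264, 283 and 285 CPM with A8B1-OVA and 138, 120 and 128 CPM with molar-equivalent OVA (1.11 ± 0.13, adjusted p = 0.00028). Dgkz, the diacylglycerol kinase that removes the lipid signal for Ras and protein kinase C, had 674, 668 and 606 CPM with A8B1-OVA and 335, 397 and 236 CPM with molar-equivalent OVA (1.01 ± 0.16, adjusted p = 0.0018). Dusp6, a phosphatase of ERK, differed less, with 89.5, 83.8 and 91.4 CPM against 56, 60.7 and 60.5 CPM with molar-equivalent OVA (0.58 ± 0.11, adjusted p = 0.006; adjusted p = 0.056 in the fit of the 6 libraries alone). Among the lower ones, Rgs2 had 38.3, 16.3 and 21.5 CPM with A8B1-OVA and 64.6, 57.7 and 72.3 CPM with molar-equivalent OVA (-1.35 ± 0.29, adjusted p = 0.011; -1.10 without A8B1-OVA replicate 2, with adjusted p = 0.055). Rgs16 lies on chromosome 1 from 153740349 to 153745468 and Spry1 on chromosome 3 from 37639947 to 37644598, both on the plus strand of GRCm38. The signalling apparatus itself (receptor chains, kinases and adaptors) gave 1 higher and 1 lower of 20, and 1 higher and 2 lower without molar-equivalent OVA replicate 2. With all libraries its share of calls in either direction did not exceed that over all genes (10.6%). The genes called with all libraries were Zap70, the kinase bound to the receptor (0.57, adjusted p = 0.018), and Malt1, a protease of NF-kB activation (-0.78, adjusted p = 0.016). Both calls were lost without A8B1-OVA replicate 1 or 2 (adjusted p = 0.062 and 0.062 for Zap70, 0.065 and 0.092 for Malt1), that of Zap70 also without molar-equivalent OVA replicate 3 (adjusted p = 0.051) and that of Malt1 without molar-equivalent OVA replicate 1 (adjusted p = 0.06).

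Costimulatory and activation receptors gave 10 higher and 0 lower of 21, with a median of 0.54. Tnfsf14, the ligand LIGHT that signals to herpesvirus entry mediator, had 31.8, 27 and 21.9 CPM with A8B1-OVA and 5.18, 6.57 and 6.74 CPM with molar-equivalent OVA (2.13 ± 0.23, adjusted p = 0.00019). Tnfsf11, the gene of RANKL, had 11.1, 15.6 and 10.8 CPM with A8B1-OVA and 2.02, 2.07 and 2.45 CPM with molar-equivalent OVA (2.52 ± 0.41, adjusted p = 0.0021). Tnfrsf9, the gene of 4-1BB, had 198, 210 and 144 CPM with A8B1-OVA and 25.6, 28.9 and 30.3 CPM with molar-equivalent OVA. All A8B1-OVA libraries of these genes lay above all of the other group. Slamf6, a self-ligand of lymphocytes that marks stem-like CD8 cells, had 432, 471 and 474 CPM with A8B1-OVA and 175, 171 and 241 CPM with molar-equivalent OVA (1.23 ± 0.14, adjusted p = 0.00023). Icos, a relative of Cd28, had 115, 118 and 109 CPM with A8B1-OVA and 61.8, 53.4 and 70 CPM with molar-equivalent OVA (0.88 ± 0.13, adjusted p = 0.001). Cd28 itself differed by less, at 230, 228 and 250 CPM against 179, 139 and 167 CPM with molar-equivalent OVA (0.54 ± 0.13, adjusted p = 0.018), and missed the threshold in the fit of these 6 libraries alone (adjusted p = 0.1). Cd83, a surface protein of activated lymphocytes and dendritic cells, was one of the genes with a high value in molar-equivalent OVA replicate 2. It had 109, 105 and 75.9 CPM with A8B1-OVA and 14.1, 49.7 and 20.4 CPM with molar-equivalent OVA (1.79 ± 0.36, adjusted p = 0.0082), and 2.49 without that replicate. Cd69, an early activation marker, was at 225, 149 and 237 CPM with A8B1-OVA and 317, 235 and 323 CPM with molar-equivalent OVA and did not pass (-0.52, adjusted p = 0.075). It passed without A8B1-OVA replicate 3 (-0.64, adjusted p = 0.037) or molar-equivalent OVA replicate 2 (-0.65, adjusted p = 0.03).

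**Figure D3:**
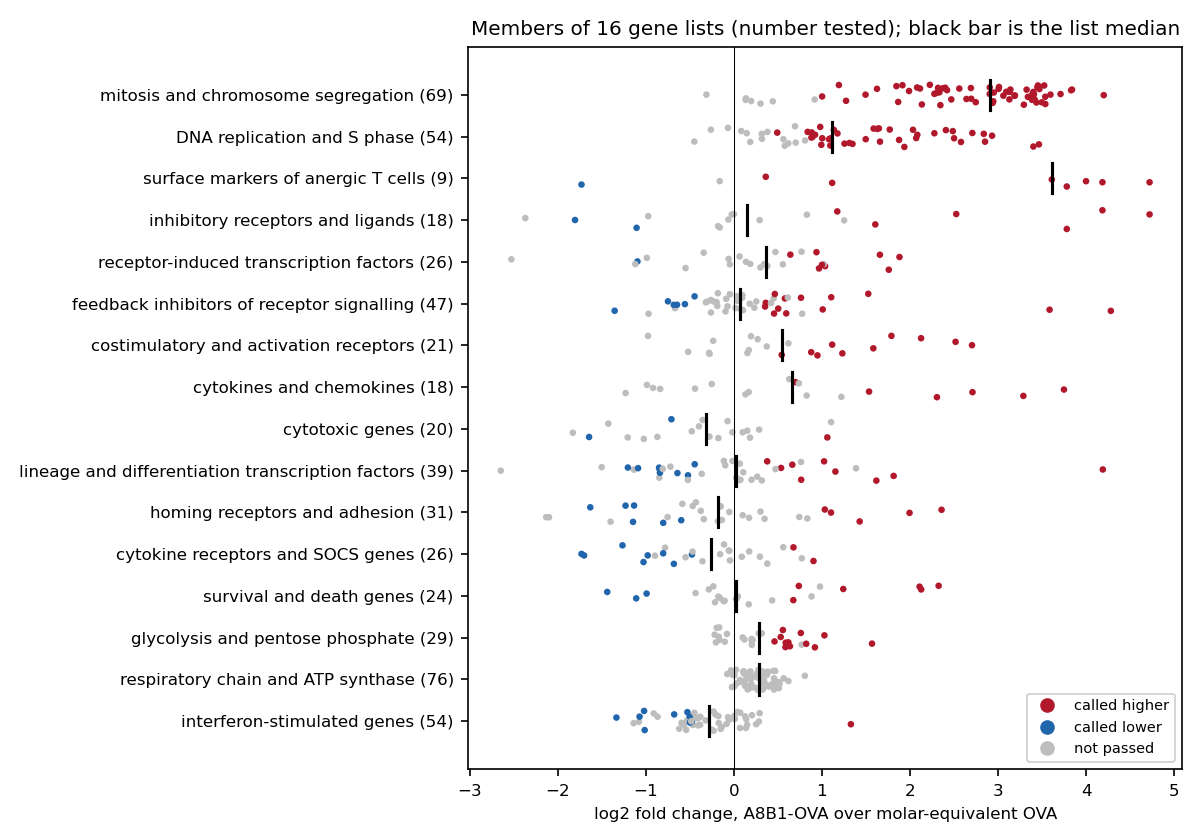
Log2 fold change of A8B1-OVA over molar-equivalent OVA for each tested member of 16 gene lists, with genes called higher in red, called lower in blue and not passed in grey, and the list median as a black bar. Mitosis genes were centred on 2.91 with 62 of 69 called higher, whereas the 76 respiratory chain genes held together around 0.28 with none called.

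Of 18 tested cytokine and chemokine genes 6 were higher, 0 lower and 12 did not pass, with a median of 0.67. Without molar-equivalent OVA replicate 2, 4 genes of this list were higher and 0 lower. Xcl1, which draws cross-presenting dendritic cells, had 177, 155 and 90 CPM with A8B1-OVA and 6.03, 12.9 and 12.6 CPM with molar-equivalent OVA. Ccl4, an inflammatory chemokine, had 104, 87.4 and 52.2 CPM with A8B1-OVA and 5.11, 7.9 and 12.1 CPM with molar-equivalent OVA (3.29 ± 0.36, adjusted p = 0.00018). In both, A8B1-OVA replicate 3 was the lowest of its group and did not overlap with molar-equivalent OVA. The remaining 4 of the 6 passed more narrowly. Ifng, the interferon gamma gene, had 5.53, 5.83 and 4.76 CPM with A8B1-OVA and 0.869, 1.36 and 3.36 CPM with molar-equivalent OVA (1.54 ± 0.43, adjusted p = 0.038). Ifng was no longer called without A8B1-OVA replicate 1 or 2 or molar-equivalent OVA replicate 1 or 2 (1.18 to 1.53, adjusted p = 0.084 to 0.12). Il2, the T cell growth factor, was near the detection floor, at 0.784, 1.08 and 0.598 CPM with A8B1-OVA and 0.0177, 0.143 and 0.228 CPM with molar-equivalent OVA, where a count of 0 allows 0.0535, 0.113 and 0.0844 CPM. It too lost its call (2.71, adjusted p = 0.045) without A8B1-OVA replicate 1 or 2 or molar-equivalent OVA replicate 1 or 2 (2.12 to 2.83, adjusted p = 0.074 to 0.15). Ccl3 (2.31, adjusted p = 0.02) was at 2.10 (adjusted p = 0.061) when A8B1-OVA replicate 1 was left out and at 2.18 (adjusted p = 0.075) when replicate 2 was, and Lta (0.70) not without any 1 library other than A8B1-OVA replicate 3 (adjusted p up to 0.14). Ccl5, a chemokine of effector and memory CD8 cells, went unpassed at 74.9, 47.7 and 39.5 CPM with A8B1-OVA and 46.3, 126 and 208 CPM with molar-equivalent OVA (-1.23, adjusted p = 0.11). It passed without molar-equivalent OVA replicate 1 (-1.63, adjusted p = 0.024).

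Of 20 cytotoxic genes 1 was higher and 2 were lower, with a median of -0.32, beside 6.56% higher and 4.06% lower over all tested genes. Serpinb6b, a serine protease inhibitor, was the higher one, at 49.5, 52.7 and 49.8 CPM with A8B1-OVA and 20.5, 20.4 and 31.9 CPM with molar-equivalent OVA (1.06 ± 0.25, adjusted p = 0.019), and lost its call without A8B1-OVA replicate 2 or molar-equivalent OVA replicate 1 or 2 (adjusted p up to 0.07). Gzmb, granzyme B, was at 5.81, 8.63 and 5.45 CPM with A8B1-OVA and 4.72, 8.5 and 27.3 CPM with molar-equivalent OVA (-1.02 ± 0.56, adjusted p = 0.26). Gzma, granzyme A, was at 8.95, 8.27 and 5.29 CPM with A8B1-OVA and 7.13, 26.5 and 46.4 CPM with molar-equivalent OVA (-1.83 ± 0.63, adjusted p = 0.082; -2.28 without molar-equivalent OVA replicate 1, with adjusted p = 0.027). The groups overlapped in both, and the highest value of each gene was in molar-equivalent OVA replicate 3. Prf1, the pore-forming perforin, had 96.1, 81.3 and 98.9 CPM with A8B1-OVA and 177, 140 and 135 CPM with molar-equivalent OVA (-0.71 ± 0.18, adjusted p = 0.024). Prf1 missed the threshold at -0.73 (adjusted p = 0.064) without A8B1-OVA replicate 1, at -0.61 (adjusted p = 0.14) without replicate 2 and at -0.58 (adjusted p = 0.09) without molar-equivalent OVA replicate 1. Klre1, a receptor of NK cells and some CD8 cells, was called lower (-1.65, adjusted p = 0.03), but not without A8B1-OVA replicate 1 or 2 or molar-equivalent OVA replicate 2 or 3 (-1.28 to -1.67, adjusted p = 0.063 to 0.14). NK cell markers summed to 9.4 to 13.3 CPM with A8B1-OVA and to 5.76, 29.3 and 10.6 CPM with molar-equivalent OVA, and their part in the values of Klre1 was not tested.

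Regulators of T cell fate gave 9 higher and 8 lower of 39, with a median of 0.03. Zbtb32, a zinc finger repressor, had 63.9, 78.7 and 47.1 CPM with A8B1-OVA and 0.816, 1.43 and 8.25 CPM with molar-equivalent OVA (4.19 ± 0.71, adjusted p = 0.0027). The fold was 5.89 on the log2 scale without molar-equivalent OVA replicate 3, which held the highest value of its group. Myb, a factor of stem-like CD8 cells, had 72, 82.4 and 117 CPM with A8B1-OVA and 28.5, 23.5 and 25 CPM with molar-equivalent OVA (1.81 ± 0.18, adjusted p = 0.00015). Ikzf2, the gene of Helios, had 34.4, 32.1 and 47.5 CPM with A8B1-OVA and 13.1, 10.7 and 13.3 CPM with molar-equivalent OVA (1.62 ± 0.17, adjusted p = 0.00015). Ikzf3, the gene of Aiolos, had 125, 140 and 150 CPM with A8B1-OVA and 78.1, 86.1 and 80 CPM with molar-equivalent OVA (0.76 ± 0.15, adjusted p = 0.0077). For Myb, Ikzf2 and Ikzf3, replicate 3 was the highest A8B1-OVA library. The paired inhibitors of E proteins moved apart. Id3, linked to memory precursors, had 451, 378 and 328 CPM with A8B1-OVA and 167, 154 and 248 CPM with molar-equivalent OVA (1.02 ± 0.18, adjusted p = 0.0033), and Id2, linked to effector cells, had 79.1, 64.3 and 54.5 CPM with A8B1-OVA and 105, 115 and 136 CPM with molar-equivalent OVA (-0.85 ± 0.17, adjusted p = 0.0079; -0.81 without A8B1-OVA replicate 2, with adjusted p = 0.05). Tox, a factor of exhausted CD8 cells, had 127, 121 and 128 CPM with A8B1-OVA and 92.3, 83 and 84.1 CPM with molar-equivalent OVA (0.54 ± 0.11, adjusted p = 0.0092), and missed the threshold in the fit of the 6 libraries alone (adjusted p = 0.074). Tcf7, at 1820, 1880 and 1940 CPM with A8B1-OVA and 1590, 1490 and 1460 CPM with molar-equivalent OVA, did not pass (0.32 ± 0.10, adjusted p = 0.055), though its libraries did not overlap. With the size factors of DESeq2 in the edgeR fit it passed (0.33, adjusted p = 0.048). Tbx21, the gene of T-bet, did not pass (0.76, adjusted p = 0.13), but did so without molar-equivalent OVA replicate 3 (1.26, adjusted p = 0.012).

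Of the Kruppel-like factors, some of which hold T cells in a resting and circulating state, 3 fell. Klf6 had 150, 91.5 and 141 CPM with A8B1-OVA and 321, 214 and 277 CPM with molar-equivalent OVA (-1.09 ± 0.21, adjusted p = 0.0064). Klf3 had 241, 181 and 276 CPM with A8B1-OVA and 423, 378 and 450 CPM with molar-equivalent OVA (-0.84 ± 0.15, adjusted p = 0.0038). Klf2 had 538, 421 and 464 CPM with A8B1-OVA and 673, 733 and 815 CPM with molar-equivalent OVA (-0.64 ± 0.13, adjusted p = 0.0072; -0.54 without A8B1-OVA replicate 2, with adjusted p = 0.053). All 3 had groups that did not overlap. S1pr1, the exit receptor of lymphoid organs and a target of Klf2, had 401, 367 and 513 CPM with A8B1-OVA and 762, 746 and 726 CPM with molar-equivalent OVA (-0.80 ± 0.13, adjusted p = 0.0024). Ccr7, a receptor for lymph node entry, did not pass (-0.43, adjusted p = 0.16).

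The homing list of 31 genes held 5 higher and 6 lower members, with a median of -0.18. Cxcr5, the receptor that leads to B cell follicles, had 67.3, 68.8 and 78.5 CPM with A8B1-OVA and 17.4, 31.3 and 31.1 CPM with molar-equivalent OVA (1.43 ± 0.21, adjusted p = 0.0014). Cxcr5 is also made by B cells, whose markers were raised in molar-equivalent OVA replicate 2, and without that library it was at 1.56. Ccr9, the gut homing receptor, went down, with 49.7, 44.9 and 59.4 CPM with A8B1-OVA and 137, 122 and 102 CPM with molar-equivalent OVA (-1.23 ± 0.17, adjusted p = 0.00097). Cxcr4, the bone marrow homing receptor, had 33, 21.2 and 23.8 CPM with A8B1-OVA and 47.4, 55 and 70.2 CPM with molar-equivalent OVA (-1.15 ± 0.22, adjusted p = 0.0056). In these 3 genes the groups did not overlap. Integrin chains stood on both sides. Itga2, the alpha chain of the collagen receptor, had 7.08, 7.4 and 13.3 CPM with A8B1-OVA and 1.24, 2.82 and 1.42 CPM with molar-equivalent OVA (2.36 ± 0.49, adjusted p = 0.0092). Its partner chain Itgb1 had 442, 477 and 773 CPM with A8B1-OVA and 108, 139 and 178 CPM with molar-equivalent OVA (2.00 ± 0.31, adjusted p = 0.0018). Itgal, the alpha chain of LFA-1, had 993, 1120 and 1110 CPM with A8B1-OVA and 539, 669 and 292 CPM with molar-equivalent OVA (1.10 ± 0.24, adjusted p = 0.01; adjusted p = 0.06 in the fit of the 6 libraries alone). Itgae, the alpha chain of CD103, fell, with 43.7, 37.1 and 48.6 CPM with A8B1-OVA and 96.7, 113 and 74.8 CPM with molar-equivalent OVA (-1.13 ± 0.23, adjusted p = 0.0076; -1.02 without A8B1-OVA replicate 2, with adjusted p = 0.053).

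Of 26 cytokine receptors and their suppressors 2 were higher, 8 lower and 16 did not pass, with a median of -0.26. Both chains of the interferon gamma receptor fell. Ifngr2 had 19.5, 18.5 and 18.9 CPM with A8B1-OVA and 65.2, 59.3 and 60.6 CPM with molar-equivalent OVA (-1.70 ± 0.18, adjusted p = 0.00017), with little spread within either group. Ifngr1 had 200, 160 and 237 CPM with A8B1-OVA and 491, 333 and 353 CPM with molar-equivalent OVA (-0.98 ± 0.19, adjusted p = 0.0058). Il18r1, a receptor chain for interleukin 18, had 10.2, 10 and 16.2 CPM with A8B1-OVA and 34.1, 25.2 and 28.3 CPM with molar-equivalent OVA (-1.27 ± 0.19, adjusted p = 0.0014). Il2rb, the shared chain of the receptors for interleukins 2 and 15, was the clearest gene on the other side, with 968, 957 and 948 CPM with A8B1-OVA and 453, 534 and 548 CPM with molar-equivalent OVA (0.90 ± 0.19, adjusted p = 0.0094). Il2ra, the CD25 gene, did not pass, at 4.71, 8.8 and 7.41 CPM with A8B1-OVA and 3.79, 4.29 and 4.18 CPM with molar-equivalent OVA (0.77, adjusted p = 0.35). The feedback suppressors Socs1 (-0.80, adjusted p = 0.016) and Socs3 (-1.03, adjusted p = 0.017) were lower. Their calls were lost without A8B1-OVA replicate 2 (-0.67 and adjusted p = 0.089 for Socs1, -0.80 and adjusted p = 0.078 for Socs3), that of Socs1 also without molar-equivalent OVA replicate 3 (adjusted p = 0.054) and that of Socs3 without molar-equivalent OVA replicate 1 (adjusted p = 0.051).

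Among 24 survival and death genes 6 were higher and 3 lower, with a median of 0.03, and antiapoptotic members were called in both directions. Bcl2 had 105, 77.7 and 133 CPM with A8B1-OVA and 358, 237 and 261 CPM with molar-equivalent OVA. Bcl2l1, the gene of Bcl-xL, had 64.8, 61.3 and 58.7 CPM with A8B1-OVA and 22.4, 28.4 and 27.4 CPM with molar-equivalent OVA (1.24 ± 0.16, adjusted p = 0.00053). The A1 copies Bcl2a1b (2.11 ± 0.26, adjusted p = 0.00043) and Bcl2a1d (2.13 ± 0.35, adjusted p = 0.0023) were both higher. They share 88.8% and 89.1% of their 31-base words with other transcripts, so reads of these copies cannot be told apart with certainty. Of the proapoptotic genes, Bcl2l11, which makes BIM, had 92.5, 95 and 106 CPM with A8B1-OVA and 55.3, 61 and 59.6 CPM with molar-equivalent OVA (0.74 ± 0.13, adjusted p = 0.0042), whereas Bbc3, which makes PUMA, had 47.3, 25.1 and 40.8 CPM with A8B1-OVA and 77.7, 88.7 and 77.9 CPM with molar-equivalent OVA (-1.11 ± 0.21, adjusted p = 0.0049). The libraries of the groups did not overlap for any gene of this paragraph.

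Cell cycle genes held the most calls. Of 54 tested genes of DNA replication and S phase 39 were higher and 0 lower, with a median of 1.12, and of 69 tested genes of mitosis and chromosome segregation 62 were higher and 0 lower, with a median of 2.91. Without molar-equivalent OVA replicate 2, 31 S phase genes and 61 mitosis genes were called higher. In bulk RNA, more cells in cycle and more RNA of these genes per cell cannot be told apart. Mcm5, a subunit of the replicative helicase, had 397, 564 and 264 CPM with A8B1-OVA and 150, 114 and 127 CPM with molar-equivalent OVA (1.65 ± 0.24, adjusted p = 0.001). E2f2, a transcription factor of the S phase program, had 42.4, 47.6 and 27.3 CPM with A8B1-OVA and 3.9, 6.5 and 10.6 CPM with molar-equivalent OVA (2.49 ± 0.35, adjusted p = 0.00084). Replicate 2 was the highest and replicate 3 the lowest A8B1-OVA library in both genes. Ncapg2, a condensin subunit, had 27.4, 52.1 and 28.2 CPM with A8B1-OVA and 4.41, 4.86 and 4.69 CPM with molar-equivalent OVA (2.95 ± 0.29, adjusted p = 0.00014). Bub1b, a spindle checkpoint kinase, had 55.2, 125 and 47.2 CPM with A8B1-OVA and 4.77, 5.43 and 7.2 CPM with molar-equivalent OVA (3.71 ± 0.41, adjusted p = 0.00021). Top2a, the topoisomerase of dividing cells, had 100, 189 and 67 CPM with A8B1-OVA and 13.4, 14.3 and 19.7 CPM with molar-equivalent OVA (2.91 ± 0.34, adjusted p = 0.00027). Again A8B1-OVA replicate 2 stood highest. Mki67, the gene of the proliferation marker Ki-67, had 67.9, 146 and 68 CPM with A8B1-OVA and 6.35, 7.68 and 11.8 CPM with molar-equivalent OVA. Relative to the mean of molar-equivalent OVA, the median mitosis gene stood at 2.42, 3.39 and 1.9 on the log2 scale in A8B1-OVA replicates 1, 2 and 3, and at -0.20, -0.18 and 0.34 in the molar-equivalent OVA replicates. The median S phase gene stood at 1.14, 1.58 and 0.58 in the A8B1-OVA replicates and at 0.08, -0.20 and 0.17 in the other group. The list of G1 cyclins, CDK inhibitors and antiproliferative genes held 4 higher and 0 lower of 23, and 2 higher and 1 lower without molar-equivalent OVA replicate 2. The 4 higher genes were Cdk2, Cdkn2c, E2f3 and E2f4, and none of these calls was made in the fit of the 6 libraries alone (adjusted p = 0.055, 0.055, 0.099 and 0.16). Cdkn2c also lost its call without A8B1-OVA replicate 2 (adjusted p = 0.051), E2f3 without any 1 library other than replicate 3 of either group, and E2f4 without any 1 library other than A8B1-OVA replicate 3 (adjusted p up to 0.14 for both). Ccnd2, cyclin D2, did not pass (-0.29, adjusted p = 0.24).

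These lists were read against their promoters, since S phase genes are known targets of E2F factors and mitosis genes of complexes that bind the cell cycle homology region (CHR) element TTTGAA. RefSeq windows on GRCm38.p6, from 250 bases before to 50 bases after the start site, were found for 44 S phase genes, 58 mitosis genes and 11005 of the genes tested. An E2F motif, TTTCGCGC or TTTGGCGC on either strand, was in 25% of S phase windows, 5.17% of mitosis windows and 1.51% of the windows of all tested genes. The CHR element, on either strand, was in 70.7% of mitosis windows, 11.4% of S phase windows and 13.1% of those of all tested genes. CCAAT, the box bound by NF-Y, was in 74.1% of mitosis windows, 63.6% of S phase windows and 39.1% of all. A match is a description of letters in a window and not of a bound site. The windows of the genes with the lowest p that hold the motif of their list are printed 5′ to 3′ on the plus strand, with capitals marking the motif: the E2F motif in E2f2 (chr4:136172024-136172323) and Mcm5 (chr8:75109259-75109558, where a forward and a reverse match overlap), and the CHR element in Ncapg2 (chr12:116405186-116405485) and Bub1b (chr2:118597961-118598260).
E2f2: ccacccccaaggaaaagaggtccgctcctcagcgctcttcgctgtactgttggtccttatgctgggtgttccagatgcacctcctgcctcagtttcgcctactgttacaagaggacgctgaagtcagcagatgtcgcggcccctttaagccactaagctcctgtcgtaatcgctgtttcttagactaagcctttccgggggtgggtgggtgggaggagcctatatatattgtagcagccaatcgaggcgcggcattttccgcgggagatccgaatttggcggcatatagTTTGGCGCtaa
Mcm5: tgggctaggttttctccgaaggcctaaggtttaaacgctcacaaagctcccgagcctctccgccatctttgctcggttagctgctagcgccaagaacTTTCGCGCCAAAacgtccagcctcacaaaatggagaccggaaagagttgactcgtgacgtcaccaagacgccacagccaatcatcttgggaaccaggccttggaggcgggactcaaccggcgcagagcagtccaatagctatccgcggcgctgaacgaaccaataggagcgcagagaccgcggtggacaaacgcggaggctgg
Ncapg2: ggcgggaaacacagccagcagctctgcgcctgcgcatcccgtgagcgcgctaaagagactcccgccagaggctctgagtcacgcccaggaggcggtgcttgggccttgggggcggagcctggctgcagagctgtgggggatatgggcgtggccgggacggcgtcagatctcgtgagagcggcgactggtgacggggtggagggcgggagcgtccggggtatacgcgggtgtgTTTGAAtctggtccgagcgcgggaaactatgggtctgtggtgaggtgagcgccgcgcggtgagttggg
Bub1b: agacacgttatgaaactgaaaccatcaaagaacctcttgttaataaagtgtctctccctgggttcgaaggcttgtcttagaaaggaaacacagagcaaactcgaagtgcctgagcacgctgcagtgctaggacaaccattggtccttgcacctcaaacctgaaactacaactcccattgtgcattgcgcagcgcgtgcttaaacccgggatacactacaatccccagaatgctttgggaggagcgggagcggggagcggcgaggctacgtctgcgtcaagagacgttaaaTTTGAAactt
The match in E2f2 begins 40 bases after the start site, those in Mcm5 153 and 149 bases before it, that in Ncapg2 18 bases before it and that in Bub1b 41 bases after it.

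**Figure D4:**
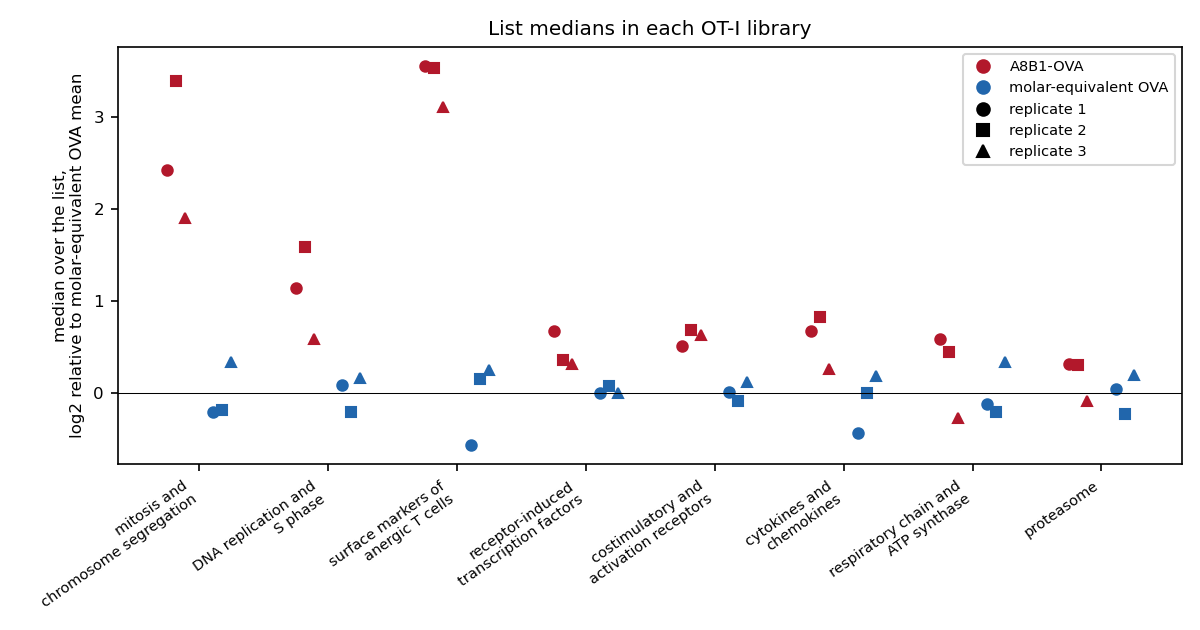
Median over each of 8 gene lists in each OT-I library, as log2 relative to the mean of molar-equivalent OVA, with A8B1-OVA left and molar-equivalent OVA right and 1 symbol per replicate. A8B1-OVA replicate 3 was the lowest A8B1-OVA library for 7 of the 8 lists and lay below molar-equivalent OVA replicates 1 and 2 for respiratory chain genes, at -0.27 against -0.12 and -0.21.

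Of 29 tested genes of glycolysis and the pentose phosphate path 12 were higher and 0 lower, with a median of 0.28. Hk2, the inducible hexokinase, had 9.31, 10.3 and 6.02 CPM with A8B1-OVA and 1.68, 3.36 and 3.64 CPM with molar-equivalent OVA (1.57 ± 0.31, adjusted p = 0.0069). Tpi1, triose phosphate isomerase, had 243, 265 and 134 CPM with A8B1-OVA and 98, 95.1 and 122 CPM with molar-equivalent OVA (1.03 ± 0.21, adjusted p = 0.0072; adjusted p = 0.06 in the fit of the 6 libraries alone). A8B1-OVA replicate 3 was close to the other group in Tpi1. Without molar-equivalent OVA replicate 2 the list had 7 higher genes and 5 when saline replicate 1 and higher-dose OVA replicate 1, which also had raised markers of other cells, were left out with it. Those markers summed to 1800 CPM in saline replicate 1 and 1120 CPM in higher-dose OVA replicate 1, where CD4 T cell markers made up 254 CPM. Molar-equivalent OVA replicate 3, at 1390 CPM, was kept in that fit. None of 76 respiratory chain and ATP synthase genes passed, with a median of 0.28 and 71 of the 76 above 0. The list median stood at 0.58, 0.45 and -0.27 in A8B1-OVA replicates 1, 2 and 3 and at -0.12, -0.21 and 0.34 in the molar-equivalent OVA replicates, so that the groups overlapped. Among amino acid, one-carbon and tRNA synthetase genes 6 of 30 were higher and 0 lower. Shmt1, a serine hydroxymethyltransferase, had 108, 107 and 83.9 CPM with A8B1-OVA and 34.7, 28.3 and 35.9 CPM with molar-equivalent OVA (1.59 ± 0.16, adjusted p = 0.00015). Psat1, which makes phosphoserine, had 117, 152 and 87.3 CPM with A8B1-OVA and 56.6, 45.3 and 57 CPM with molar-equivalent OVA (1.17 ± 0.17, adjusted p = 0.0013). Of 18 purine and pyrimidine genes 5 were higher and 0 lower, against 3 without molar-equivalent OVA replicate 2 and 2 without the 3 libraries with raised markers. Of 32 cholesterol and fatty acid genes 4 were higher and 0 lower, with and without molar-equivalent OVA replicate 2. Over all tested genes 6.56% were called higher with all libraries. Scd2, a fatty acid desaturase, was the lipid gene with the lowest p, at 101, 136 and 91.3 CPM with A8B1-OVA and 30, 56.5 and 42.8 CPM with molar-equivalent OVA (1.35 ± 0.22, adjusted p = 0.0022). Ribosome biogenesis (1 higher and 1 lower of 33), proteasome (0 of 37) and Gimap genes (0 of 8) did not exceed the share of calls over all genes. Without molar-equivalent OVA replicate 2, 3 ribosome biogenesis genes and 1 Gimap gene were called lower.

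The 54 tested genes that interferons induce held 1 higher and 9 lower, with a median of -0.29. The lower ones were Tgtp1, Tgtp2, Igtp, Irgm1 and Ifi47, which are immunity-related GTPases, the guanylate-binding genes Gbp2 and Gbp7, and Ifi35 and Ly6a. Of these 9, only Tgtp1 and Tgtp2 kept their calls without any 1 library, and the others lost theirs without A8B1-OVA replicate 2, among other libraries, with adjusted p values up to 0.12 to 0.18. Tgtp1 had 215, 160 and 237 CPM with A8B1-OVA and 660, 405 and 477 CPM with molar-equivalent OVA (-1.33 ± 0.24, adjusted p = 0.0041). Its neighbour Tgtp2, with which it shares most of its sequence, was at -1.07 ± 0.20 (adjusted p = 0.0048). Reads may have been split between these copies. Ifi27l2a was the higher one, at 616, 405 and 354 CPM with A8B1-OVA and 154, 167 and 227 CPM with molar-equivalent OVA (1.33 ± 0.20, adjusted p = 0.0015). Relative to the mean of molar-equivalent OVA, the median interferon-induced gene stood at -0.30, -0.60 and 0.01 in A8B1-OVA replicates 1, 2 and 3. In the molar-equivalent OVA replicates it stood at 0.31, -0.13 and -0.16, so that the groups overlapped. Among 24 heat shock genes 1 was higher and 3 were lower, with a median of -0.12. Over all tested genes 6.56% were higher and 4.06% lower. The inducible Hspa1b ran from 165 to 545 CPM with A8B1-OVA and from 525 to 776 CPM with molar-equivalent OVA and did not pass (-0.95, adjusted p = 0.33). The higher gene was Hspd1 and the lower ones were Dnaja1, Dnajb1 and Dnajb4. None of these 4 was called without A8B1-OVA replicate 2 (adjusted p = 0.12 to 0.15) or in the fit of the 6 libraries alone (adjusted p = 0.084 to 0.18).

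Several genes outside these lists were among the 15 highest and 15 lowest by fold. They were taken from called genes that averaged 10 CPM or more, with groups that did not overlap. Nrgn, neurogranin, a calmodulin-binding protein, was at the top with 46.2, 46.9 and 9.51 CPM with A8B1-OVA and 0.585, 0.929 and 0.739 CPM with molar-equivalent OVA (5.53 ± 0.60, adjusted p = 0.00018). Its lowest A8B1-OVA library was replicate 3, and the separation of the groups was a condition of its selection. Chst2, a sulfotransferase that modifies carbohydrates, had 75.7, 90.6 and 58.5 CPM with A8B1-OVA and 1.6, 2.97 and 6.34 CPM with molar-equivalent OVA (4.38 ± 0.44, adjusted p = 0.00015). Bcat1, the cytosolic branched-chain aminotransferase, had 35.3, 38.8 and 30.2 CPM with A8B1-OVA and 1.01, 4.14 and 2.76 CPM with molar-equivalent OVA (3.75 ± 0.41, adjusted p = 0.00018). Capn3, a calpain protease known from muscle, had 27.1, 39.7 and 24.4 CPM with A8B1-OVA and 1.72, 2.04 and 3.16 CPM with molar-equivalent OVA (3.73 ± 0.31, adjusted p = 8.9e-05). The calls of all 4 held without any 1 library. On GRCm38 Nrgn lies on chromosome 9 from 37544492 to 37552904 on the minus strand and Chst2 on the same chromosome from 95399292 to 95406722 on the minus strand.

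Plaur, the urokinase receptor, was the lowest of those genes, with 9.73, 5.64 and 8.76 CPM with A8B1-OVA and 48.3, 39.3 and 42.3 CPM with molar-equivalent OVA (-2.43 ± 0.23, adjusted p = 0.0001). Slc16a5, a monocarboxylate transporter, had 17.5, 17.9 and 18.8 CPM with A8B1-OVA and 60.7, 55.1 and 65.6 CPM with molar-equivalent OVA (-1.74 ± 0.15, adjusted p = 8.9e-05). In both genes molar-equivalent OVA replicate 2 lay lowest of its group. Igfbp4, a binding protein of insulin-like growth factors, had 177, 86.7 and 163 CPM with A8B1-OVA and 534, 399 and 490 CPM with molar-equivalent OVA (-1.74 ± 0.23, adjusted p = 0.00063). Tsc22d3, which makes the glucocorticoid-induced protein GILZ, had 373, 152 and 318 CPM with A8B1-OVA and 858, 700 and 771 CPM with molar-equivalent OVA (-1.47 ± 0.28, adjusted p = 0.0053). Slpi, Nfam1 and Apoe, genes that myeloid cells also make, had their highest values in molar-equivalent OVA replicate 2, at 40.9, 40.6 and 65.5 CPM. Slpi remained called without that library (-1.64, adjusted p = 0.002), while Nfam1 (-1.94, adjusted p = 0.045) and Apoe (-1.81, adjusted p = 0.044) did not (-0.86 and adjusted p = 0.22, -0.96 and adjusted p = 0.18). The calls of Nfam1 and Apoe were also lost without A8B1-OVA replicate 1, 2 or 3 (adjusted p up to 0.15), and that of Apoe also without molar-equivalent OVA replicate 3 (adjusted p = 0.053). Of 22 macrophage and monocyte markers 3 were called lower (Itgam, Fcer1g and Tyrobp, named after their values were seen), and without molar-equivalent OVA replicate 2 none was. The part of myeloid RNA in these values was not tested.

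The same contrast in OT-II cells, given the same treatments and sorted alike, was compared gene by gene in a joint fit of all 23 libraries. The difference, OT-I log2 fold change minus OT-II log2 fold change, passed for 43 of 15235 genes (0.282%), with 24 higher in OT-I (0.158%) and 19 lower (0.125%). In the joint fit Nrp1 rose in OT-I (3.62) and did not pass in OT-II (-0.59, adjusted p = 0.32), where it had 17.4, 14.7 and 17.8 CPM with A8B1-OVA and 28, 23 and 24.6 CPM with molar-equivalent OVA (difference 4.22 ± 0.46, adjusted p = 0.00015). Capn3 likewise rose in OT-I and was at 0.56 in OT-II (difference 3.17 ± 0.43, adjusted p = 0.0011). Nsd2, a histone H3 methyltransferase, had 83.3, 104 and 60 CPM with A8B1-OVA and 13.7, 13.5 and 12.8 CPM with molar-equivalent OVA in OT-I, and 31.8, 32.2 and 22.4 CPM and 12.7, 17.5 and 19.1 CPM in OT-II (difference 1.82 ± 0.31, adjusted p = 0.011). Gata3, a factor of CD4 helper cells, moved in opposite directions in the joint fit, with 0.39 in OT-I (adjusted p = 0.005) and -0.48 in OT-II (adjusted p = 0.0016; difference 0.87 ± 0.12, adjusted p = 0.0012). These 4 differences held without any 1 of the 12 libraries of the contrasts. That of Itgb1 (1.97, adjusted p = 0.024) held in 5 of the 12 such fits and that of Chst2 (2.76, adjusted p = 0.046) in 4.

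Eomes, a T-box factor of memory CD8 cells, had 106, 139 and 89 CPM with A8B1-OVA and 2.86, 2.95 and 7.52 CPM with molar-equivalent OVA in OT-II. In OT-I the joint fit gave 119, 119 and 114 CPM with A8B1-OVA and 68.6, 66.5 and 85.8 CPM with molar-equivalent OVA (difference -3.98 ± 0.46, adjusted p = 0.00016), and all 6 A8B1-OVA libraries of both cell types lay between 89 and 139 CPM. The OT-I contrast of Eomes did not itself pass in the joint fit (0.67, adjusted p = 0.16). Olfml3, a secreted matrix protein, was at 32.6, 54.6 and 19.9 CPM with A8B1-OVA and 0.248, 0.931 and 0.865 CPM with molar-equivalent OVA in OT-II, and at 1.71, 2.57 and 1.71 CPM and 5.84, 4.08 and 5.93 CPM in OT-I (difference -7.12 ± 0.80, adjusted p = 0.00015). Its OT-I contrast did not pass in that fit either (-1.41, adjusted p = 0.08). Ifngr2, with a negative difference too, fell in both cell types and more in OT-I, by 1.69 on the log2 scale in OT-I and by 0.55 in OT-II (difference -1.15, adjusted p = 0.024, held in 5 of 12 fits). None of the 123 tested S phase and mitosis genes passed for the difference. Their median differences were 0.44 and 0.87.

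**Figure D5:**
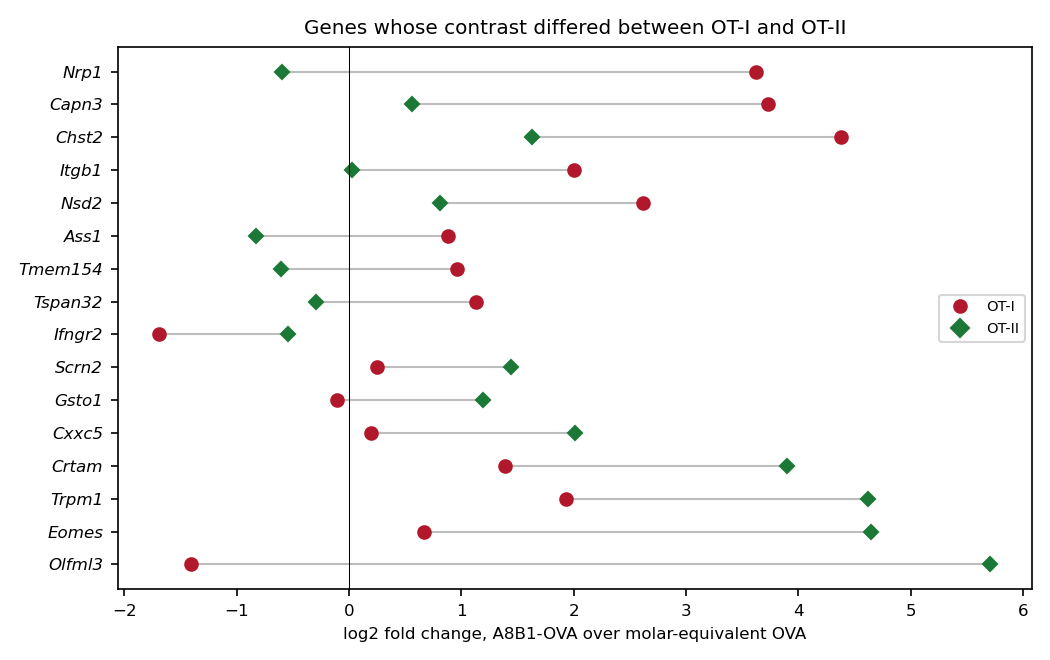
Log2 fold change of A8B1-OVA over molar-equivalent OVA in OT-I (red circles) and OT-II (green diamonds) for the 16 genes named by their difference between the cell types, from the joint fit. Nrp1 had the highest difference at 4.22 and Olfml3 the lowest at -7.12.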

How the data were processed

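RNA of sorted OT-I cells was sequenced with a SmartSeq protocol, per the labels' protocols, and kallisto 0.46.1 with GRCm38 is named in the submitters' processing notes, while no source used here states the annotation release or the use of strand. The authors deposited estimated counts per gene. All values used here were already whole numbers, so none was rounded before testing. Genes were kept with filterByExpr (minimum count 10, total 15). All 12 OT-I libraries were fitted by group with edgeR 4.0.16 (R 4.3.3, TMM, quasi-likelihood test, Benjamini-Hochberg adjustment, threshold 0.05), and all 23 libraries jointly for the difference between OT-I and OT-II. CPM values are not per length, so levels were not compared between genes. A count of 0 allows up to 3 counts, which is 0.0408 to 0.0566 CPM in the A8B1-OVA libraries and 0.0535 to 0.113 CPM in the molar-equivalent OVA libraries, for counting error only. DESeq2 1.42.0, other size factors, no filter, a replicate block, left-out libraries and smaller fits were alternatives. The assignment of libraries to groups used labels only, while the choice of this comparison and of the gene lists was made with earlier results of these data known. Genes were named as the members of the lists (of lists longer than 50 genes, 10), the 15 highest and 15 lowest called genes by fold that averaged 10 CPM or more without overlap between the groups, and the 8 highest and 8 lowest differences, of which the text describes a part. On simulated counts for 13832 genes, with changes planted in 197, the test recovered 50.5% of 2-fold and 69.4% of 4-fold changes with 4.84% false calls. For the difference, on 14929 genes with 196 changed, it recovered 30.3% and 61.9% with 7.22% false calls. The simulation used the spread estimated here and put no RNA of other cells into single libraries. Its rates hold for that setting and need not hold for these data. Replicate numbers were not taken to pair pools. Each transcript's 31-base words were looked for in other genes of GENCODE release 21 for mouse, and 18 of 146 named genes shared at least 10% of theirs, so their counts are uncertain (Ass1, Bcl2a1b, Bcl2a1d, Ccr9, Dnaja1, Gbp7, Hspa1b, Hspd1, Ifi35, Ifng, Igtp, Il2, Ly6a, Spry1, Tgtp1, Tgtp2, Tpi1 and Xcl1). Promoter windows were RefSeq's on GRCm38.p6.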

Additional observations from a re-analysis of the deposited data

Results flagged for a closer look

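The contrast of A8B1-OVA with molar-equivalent OVA differed between OT-I and OT-II cells, by the test of the difference itself, for 43 genes, and the 8 highest and 8 lowest with a sufficient level are given as OT-I minus OT-II on the log2 scale. The positive differences were 4.22 for Nrp1, 3.17 for Capn3, 2.76 for Chst2, 1.97 for Itgb1, 1.82 for Nsd2, 1.71 for Ass1, 1.57 for Tmem154 and 1.43 for Tspan32. The negative ones were -7.12 for Olfml3, -3.98 for Eomes, -2.69 for Trpm1, -2.51 for Crtam, -1.81 for Cxxc5, -1.31 for Gsto1, -1.19 for Scrn2 and -1.15 for Ifngr2. Nrp1, Capn3, Nsd2, Ass1, Tmem154, Cxxc5, Trpm1, Eomes and Olfml3 passed in all 12 fits that left out 1 library. Tspan32 passed in 10 of them, Itgb1 and Ifngr2 in 5, Chst2 and Gsto1 in 4, Crtam in 2 and Scrn2 in 1. Crtam, a receptor of activated CD8 and NK cells, had 164, 153 and 140 CPM with A8B1-OVA and 54.2, 51.1 and 68.8 CPM with molar-equivalent OVA in OT-I. In OT-II it had 28.7, 29.2 and 18.8 CPM with A8B1-OVA and 2.54, 0.97 and 1.6 CPM with molar-equivalent OVA.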

How the results depend on the processing

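Of the counts over all genes for the OT-I contrast, 3 settings other than leaving out 1 library moved some by over 1.5 times. DESeq2 called 2473 genes (1407 higher and 1066 lower), the fit of only the 6 libraries 575 (434 and 141), and that fit without molar-equivalent OVA replicate 2, chosen after seeing the data, 557 (444 and 113). Leaving out 1 library gave 575 to 2181 calls, 429 to 1286 higher and 146 to 895 lower. For the difference between OT-I and OT-II DESeq2 called 176 genes (106 higher and 70 lower), the fit without 5 libraries with raised markers of other cells, molar-equivalent OVA replicate 2 of OT-I and replicate 3 of OT-II among them, gave 11 lower ones, and leaving out 1 library gave 16 to 96 calls, 10 to 66 higher and 6 to 30 lower. A replicate block gave 1392 calls and 41 differences, and 1 of 3 A8B1-OVA libraries correlated best with the molar-equivalent OVA library of its own number (same-number correlations -0.225 to 0.127), so the numbers were not taken as a pairing. Of 124 called genes that the text names, 83 were called in every fit that left out 1 library and 69 under every alternative. Genes that had not passed changed sign, none of them passing, when 1 library was left out: Nt5e ran from -0.396 to 0.0672, Gzmb from -1.44 to 0.032, and Gsto1 in OT-I from -0.195 to 0.0148, with 0.0046 without A8B1-OVA replicate 3. The cause of these changes was not tested. Molar-equivalent OVA replicate 2, with 26.6 M counts, sets the highest detection floor.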
